A study of Mus musculus with 7 samples.

Results

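Open chromatin was examined at the Six-Eya-Dach genes *Six2*, *Six4*, *Eya1*, *Eya2*, *Eya3*, *Eya4* and *Dach1*, which are 7 of 49598 RefSeq genes on the assembled mouse chromosomes. The genes were chosen by name, with earlier results of these data known. All deposited ATAC-seq peaks from 50 kb upstream to 50 kb downstream of each gene body were taken, on GRCm38. Peaks with a q-value of 0.01 or less in at least 1 of 7 libraries were merged wherever they shared 1 bp, which gave 178 regions in the 7 windows of 210347 regions genome-wide. A region was called a promoter region where it reached the window from 1000 bp before to 100 bp after an annotated transcription start site (TSS), and distal otherwise. Of the 178 regions, 9 reached a promoter of the gene itself, 5 reached the promoter of a neighbouring gene and 164 were distal.

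ATAC-seq reads out where the Tn5 transposase can reach DNA, so that a peak marks accessible chromatin. The 7 libraries came from cells sorted by FACS from the second heart field region of mouse embryos at E9.5, with embryos pooled before sorting. In the Hoxb1GFP line the GFP reporter marks the posterior second heart field, and there were 2 libraries of GFP+ cells (replicates 3 and 4) and 2 of GFP- cells (replicates 1 and 2). In the Mef2c-Cre;RosatdT line, Tomato marks all descendants of cells in which an anterior heart field enhancer of *Mef2c* drove Cre, and there were 2 libraries of Tomato+ cells (replicates 6 and 8) and 1 of Tomato- cells (replicate 7). The peak list of Tomato+ replicate 6 carries a run name that mentions YFP, a reporter of neither line, whereas its labels name tdTomato. It is used here as labelled, and the total counts of region calls that rest on it are also given without it. Counts by gene, counts of regions without a peak in the other population, and calls at marker and network genes are given only with it. Both sort-negative populations are mixtures of whatever else was dissected, each sorted from its own line, so that line and population cannot be told apart between GFP+ and Tomato+. The paper reports only a small overlap of the reporters. GFP- cells can therefore include the Mef2c-Cre lineage, and Tomato- cells the posterior second heart field. The labels do not say which libraries came from separate pools.

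SIX-family proteins are homeodomain transcription factors that bind DNA, EYA proteins are co-activators and phosphatases that these factors bring to DNA, and DACH proteins are Ski-related co-factors that often act as co-repressors with them. The network was described in the fly eye and acts in vertebrates in kidney, ear, muscle and pharyngeal arch development. In the second heart field, EYA1 and its SIX-family partners act in outflow tract progenitors together with TBX1 and the FGF ligands.

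Sequencing depth, as computed from the background rate of each list, was between 52340120 and 93074895 tags. The lists held 187914 to 291287 peaks, of which 64306 to 77746 had a q-value of 0.01 or less. Fold enrichment is the height of a peak over its local background within a library, and the rank of a peak is its place by fold enrichment in its library's list, with 1 the highest. Promoters of the 6 posterior second heart field genes examined (among them *Aldh1a2*, *Osr1* and *Hoxb1*) had a peak past the q limit for 5 and 5 genes in GFP+, 3 and 5 in Tomato+, 3 and 5 in GFP- and 4 in Tomato-, so these counts overlapped between the populations. By rank, *Aldh1a2* was higher in both GFP+ libraries (19378 and 20845) than in Tomato+ (39060 and 33669) and GFP- (25972 and 22008). *Wnt2* was higher and *Foxf1* lower in GFP+ than in Tomato+. *Hoxb1* and *Osr1* overlapped between GFP+ and both Tomato+ and GFP-, and *Tbx5* ranked lower in GFP+ than in GFP-. Of the second heart field and outflow tract genes examined, *Isl1*, *Fgf10* and *Fgf8* ranked higher in GFP+ than in Tomato+, and *Mef2c* and *Tbx1* overlapped. Neural promoters had such a peak for 2 or 3 of 3 genes in every library. By library, 0 to 2 of 3 neural crest genes had one, 0 to 2 of 3 endoderm genes and 0 to 3 of 3 paraxial mesoderm genes. *Tfap2a*, *Foxa2*, *Pax3* and *Tcf15* each had one in 5 libraries. Of 4 blood and endothelium genes 1 or 2 had one in every library: *Kdr* in all 7 and *Tal1* in 5, and *Gata1* and *Klf1* in none. By rank, the neural gene *Sox2* and *Tal1* were lower in every GFP+ and Tomato+ library than in every GFP- and Tomato- library. No other gene of these cell types was, and 2.3% of 17148 gene promoters were. What cells other than second heart field progenitors contribute to the values below was not tested.

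The sequences on which the results turn are given on the plus strand of GRCm38, each centred on the median summit of its region. Capitals mark matches, on either strand, to 9 consensus strings. That of the SIX-family factors, known as MEF3, was searched as TCAGGTT. Binding of HOX proteins with their PBX partners was represented by the letters TGATNNAT, and that of the MEIS co-factors by TGACAG. For the heart factors of the GATA class the search used AGATAA, for those of the NKX class AAGTG, and for T-box factors AGGTGTG. The strings of TEAD factors (GGAATG), of the homeodomain factors LHX and ISL (TAATTA) and of RUNX factors (TGTGGT) were searched in the same way. A match is a run of letters and not a measured binding site, and no 2 of the strings overlapped in the windows shown. The promoters of *Six2* (chr17:85688329-85688529) and *Six4* (chr12:73113260-73113558) are shown because both were open in all 7 libraries, and because *Six4* held the MEF3 string.
Six2 promoter: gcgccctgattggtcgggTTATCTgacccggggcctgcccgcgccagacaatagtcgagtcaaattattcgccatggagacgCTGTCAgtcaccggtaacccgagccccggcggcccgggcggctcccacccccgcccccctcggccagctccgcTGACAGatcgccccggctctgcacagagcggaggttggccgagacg
Six4 promoter: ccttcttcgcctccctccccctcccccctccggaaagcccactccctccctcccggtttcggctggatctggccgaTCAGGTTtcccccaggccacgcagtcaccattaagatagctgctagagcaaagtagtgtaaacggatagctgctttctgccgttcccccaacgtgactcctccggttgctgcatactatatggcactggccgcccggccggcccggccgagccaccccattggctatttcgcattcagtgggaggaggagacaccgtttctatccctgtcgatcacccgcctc
A pair of regions at *Eya1* ranked higher in every sort-positive than in every sort-negative library, 1 in intron 6 (chr1:14265972-14266172) and 1 upstream (chr1:14354313-14354403).
Eya1 intron 6: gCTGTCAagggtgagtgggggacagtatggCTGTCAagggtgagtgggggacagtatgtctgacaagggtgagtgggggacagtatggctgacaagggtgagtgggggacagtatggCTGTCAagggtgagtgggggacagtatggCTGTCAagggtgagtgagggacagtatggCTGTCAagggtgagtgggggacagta
Eya1 upstream: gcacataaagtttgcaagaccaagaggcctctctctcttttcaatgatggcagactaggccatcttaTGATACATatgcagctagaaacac
At *Eya2*, the promoter (chr2:165595070-165595270) ranked lower in the sort-positive libraries and an intronic region (chr2:165653620-165653820) ranked higher.
Eya2 promoter: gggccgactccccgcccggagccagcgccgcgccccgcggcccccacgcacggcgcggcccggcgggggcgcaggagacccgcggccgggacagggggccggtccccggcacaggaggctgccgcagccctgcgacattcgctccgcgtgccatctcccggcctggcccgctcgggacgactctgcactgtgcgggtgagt
Eya2 intron 1: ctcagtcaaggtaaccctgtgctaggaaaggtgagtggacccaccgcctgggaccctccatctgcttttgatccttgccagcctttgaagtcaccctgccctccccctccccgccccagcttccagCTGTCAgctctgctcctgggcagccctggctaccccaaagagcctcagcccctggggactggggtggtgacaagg
At *Dach1*, a region near the start (chr14:98167292-98167442) passed the q limit in the 4 sort-positive libraries and had no peak in the others, while a region further into intron 1 (chr14:98155045-98155245) was open in all 7.
Dach1 intron 1, near: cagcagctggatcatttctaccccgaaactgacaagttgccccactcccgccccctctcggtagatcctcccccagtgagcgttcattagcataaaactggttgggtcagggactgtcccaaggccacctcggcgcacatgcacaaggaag
Dach1 intron 1, far: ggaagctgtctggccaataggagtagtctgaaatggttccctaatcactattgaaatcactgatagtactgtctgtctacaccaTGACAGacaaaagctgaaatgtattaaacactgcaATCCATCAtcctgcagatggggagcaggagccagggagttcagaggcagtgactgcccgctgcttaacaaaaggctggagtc

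The windows differed in how many regions they held. *Eya2* had the most, 58 regions or 21.0 per 100 kb, of which 43 passed the q limit in 1 library only. *Six2* followed with 23 regions or 18.3 per 100 kb. *Eya3* (24 regions) was near the median of 21774 coding genes, 12.9 against 13.0 per 100 kb. *Six4* with 11 regions (9.61 per 100 kb) and *Eya1* with 24 (9.91) were below it. *Dach1*, the longest gene at 382.92 kb, held 26 regions (5.38 per 100 kb), and *Eya4* held 12 over a gene of 247.877 kb (3.45 per 100 kb), a density that 14.1% of coding genes fell below. Beyond its promoter, *Eya4* had no region that passed the q limit in more than 1 library.

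**Figure D1:**
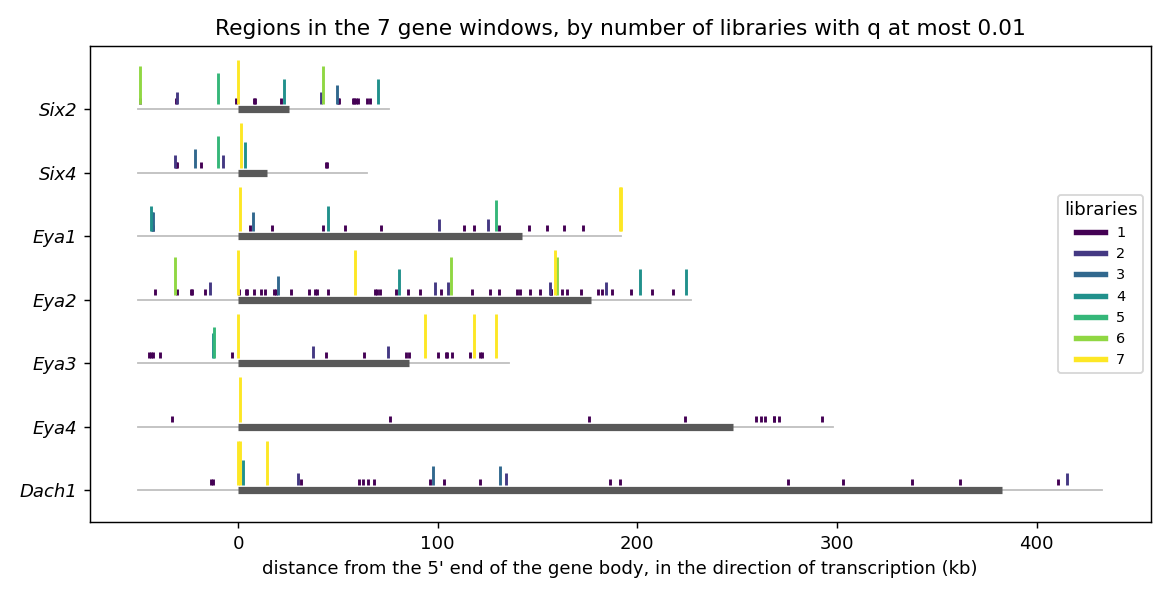
Position of the 178 regions relative to the 5' end of each gene body (x axis, kb, in the direction of transcription; grey bars are gene bodies, thin lines the 50 kb flanks), with the height and colour of each line giving the number of libraries with a q-value of 0.01 or less. The tallest lines, at 7 libraries, stand at the start of all 7 genes, and distal lines of that height are seen at *Eya1*, *Eya2* and *Dach1* (those beyond *Eya3* are promoters of other genes).

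Most regions were seen in few libraries. In the 7 windows 119 of 178 regions passed the q limit in 1 library only, 66.9% against 65.8% of all regions, and 16 passed it in all 7 libraries, 8.99% against 11.2%. By class, 10 of 14 promoter regions (71.4%) and 6 of 164 distal regions (3.66%) were open in all 7 libraries, against 59.8% and 6.46% of all regions of the same class. Each library held between 44 and 63 of the 178 regions. The list of shared distal regions consisted of 2 each at *Eya1*, *Eya2* and *Dach1*, and none at *Six2*, *Six4*, *Eya3* or *Eya4*.

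Every gene had a promoter region with a peak of q of 0.01 or less in all 7 libraries. *Eya1* reached this only when the whole region was taken: its summits lay 291 to 387 bp downstream of the TSS, and in GFP+ replicate 3 and GFP- replicate 1 the peak ended short of the promoter window. Counted inside the promoter window, a peak in all 7 libraries was found for 6 of the 7 genes. By that rule it was found for 46.2% of 26180 genes with a curated TSS.

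*Six2*, a factor that keeps nephron progenitors undifferentiated, had a promoter peak of steady height. Its fold enrichment was 5.28 and 6.05 in GFP+, 5.82 and 4.68 in Tomato+, 5.34 and 4.999 in GFP-, and 4.65 in Tomato-. The values of the 4 populations overlapped apart from the lone Tomato- library, which was the lowest. The local background under the *Six2* peak was 2.12 to 3.21 times the genome-wide background, the highest range among the 7 promoters, which lowers a fold enrichment taken over it: by pileup per 10000000 tags, *Six2* was first of the 7 genes in 5 libraries, with 4.30 to 8.22.

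*Six4*, a homeodomain factor of muscle and kidney progenitors, had fold enrichments of 4.91 and 6.99 in GFP+, 5.13 and 5.77 in Tomato+, 4.93 and 4.89 in GFP-, and 5.10 in Tomato-. GFP+ replicate 4 stood above the others, and the remaining libraries lay within 4.89 to 5.77. The promoter region spanned 2105 bp, and in GFP- replicate 2 the highest peak lay at 1254 bp from the TSS, where the other 6 summits lay at -233 to -138 bp. The value of 4.89 belongs to that peak. Inside the promoter window, the peak of GFP- replicate 2 (summit at -207 bp) had a fold enrichment of only 3.57 and a rank of 37169, below all other libraries. Within 200 bp of the summit the region held the MEF3 string TCAGGTT, at chr12:73113336-73113342, which 4.16% of all promoter regions and 6.36% of all distal regions also held. It was the only one of the 14 promoter regions in the windows with that string.

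*Eya1*, the co-activator whose loss in people causes branchio-oto-renal syndrome, had the highest promoter enrichment of the 7 genes in 4 of 7 libraries. Fold enrichment was 9.76 and 6.76 in GFP+, 7.84 and 6.57 in Tomato+, 8.05 and 7.06 in GFP-, and 6.42 in Tomato-. GFP+ replicate 3 was the highest and Tomato- the lowest, but the 2 GFP+ libraries lay on either side of both GFP- libraries. Local background at this promoter was at most 1.11 times that of the genome.

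*Eya2*, an EYA co-activator expressed in cranial placodes and somites, had the lowest promoter enrichment of the 7 genes in every library but GFP- replicate 2 and GFP- replicate 1. Fold enrichment at its upstream TSS was 3.87 and 3.49 in GFP+, 3.39 and 3.24 in Tomato+, 4.43 and 5.68 in GFP-, and 4.08 in Tomato-. The 3 sort-negative libraries were above all 4 sort-positive ones, and GFP+ was above Tomato+. By rank the peak was at 34380 and 43547 in GFP+, 59898 and 55654 in Tomato+, 22099 and 14483 in GFP-, and 27374 in Tomato-. Its -log10 q-values were 3.97 and 3.55 in GFP+, 6.36 and 9.88 in GFP-, and 6.86 in Tomato-. In Tomato+ they were 2.15 and 2.67, just past the limit of 2. The mean log2 fold enrichment was 0.42 lower in the sort-positive libraries, 1.80 against 2.23 (two-sided exact permutation p = 0.0286, n = 4 against 3, the smallest p these 7 libraries can give, unadjusted, and for a comparison chosen after the values were seen). When ranks were taken as a percentage of each library's list the 2 sides overlapped, so the separation depended on the rank scale.

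*Eya3*, the most broadly expressed EYA gene, had fold enrichments of 6.38 and 5.94 in GFP+, 6.47 and 7.68 in Tomato+, 6.62 and 6.59 in GFP-, and 8.33 in Tomato-. Both GFP+ libraries were below all others. By rank, Tomato+ (10753 and 8862) stood above GFP+ (11666 and 13262), as did GFP- (9936 and 10634); neither order remained as a percentage of the list. The gap of 0.20 in mean log2 fold enrichment between GFP+ and Tomato+ had a two-sided exact permutation p of 0.333, the smallest that 2 libraries against 2 can give.

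*Eya4*, the EYA gene linked to hearing loss and dilated cardiomyopathy, had fold enrichments of 4.29 and 5.07 in GFP+, 4.53 and 5.33 in Tomato+, 5.24 and 5.01 in GFP-, and 4.70 in Tomato-. The populations overlapped throughout. The summit of the highest peak was at -847 and -672 bp from the TSS in the 2 GFP- libraries and at -273 to -219 bp in the other 5. Both places were covered by 1 interval in GFP- replicate 2 (6 summits), Tomato+ replicate 6 and Tomato+ replicate 8. GFP- replicate 1 had 4 peaks in the promoter window. With pileups of 15 to 23, the summits show which maximum was highest and not a peak confined to another place.

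*Dach1*, the co-factor with a Ski-like domain, had fold enrichments of 3.90 and 5.94 in GFP+, 3.88 and 4.53 in Tomato+, 4.39 and 5.04 in GFP-, and 4.34 in Tomato-. The 2 GFP+ libraries lay near the lowest and at the highest value, so no population stood apart. Its summits fell at -146 to -100 bp from the TSS in all 7 libraries, and local background was 1.73 to 2.41 times that of the genome.

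**Figure D2:**
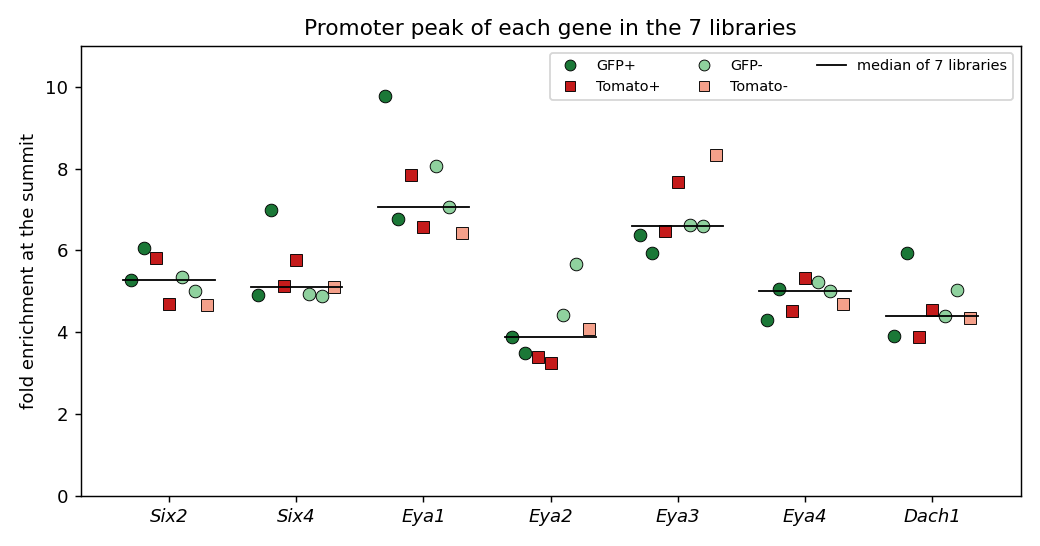
Fold enrichment at the highest peak of each gene's promoter region (y axis) in the 7 libraries, with 1 symbol per library and a line at the median. For *Six4* in GFP- replicate 2 this peak lies outside the promoter window. *Eya1* (median 7.06) and *Eya3* (6.59) lie highest and *Eya2* (3.87) lowest, and only at *Eya2* are the 3 sort-negative libraries above the 4 sort-positive ones.

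The comparison of GFP+ with Tomato+ asks how the posterior part of the second heart field differs from the Mef2c-Cre lineage. A region was called where both libraries of one population ranked above both of the other, with a missing peak ranked last, and the share of all regions called by the same rule is given as background. Among the 14 promoter regions, 1 (*Eya2*) ranked higher in GFP+, against a background of 21.8%, and 1 (*Eya3*) ranked lower, against 9.38%. Among the 164 distal regions, 15 (9.15%) ranked higher in GFP+ and 14 (8.54%) lower, against backgrounds of 7.6% and 7.53%. The distal shares were near the background, and are no result about these genes. The counts moved with the libraries used: without Tomato+ replicate 6, 29 regions of either class ranked higher in GFP+ and 35 lower, in place of 16 and 15. The calls at the *Eya2* and *Eya3* promoters held without it.

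By gene, *Eya2* had 7 regions higher in GFP+ and 5 lower of 58, *Dach1* had 4 and 1 of 26, and *Eya1* 2 and 4 of 24. *Six2* had 1 and 1 of 23, *Six4* 1 and 1 of 11, *Eya4* 1 and 0 of 12, and *Eya3* 0 and 3 of 24. Of all regions genome-wide, 8.87% ranked higher in GFP+ and 7.7% lower. Whether any gene departs from these shares was not tested. In mean log2 fold enrichment the 7 promoters differed by -0.20 to 0.20 between GFP+ and Tomato+, with *Dach1* at the upper and *Eya3* at the lower end. No p below 0.333 is possible with 2 libraries against 2.

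A stricter reading asks for a q-value of 0.01 or less in both libraries of one population and no deposited peak in the other. Of the distal regions, 2 were of this kind in GFP+, against 0.553% of all distal regions, and 1 in Tomato+, against 0.425%. At *Dach1*, a region in intron 1 (chr14:98038595-98038841) had fold enrichments of 3.61 and 3.75 in GFP+, no peak in Tomato+ or GFP-, and 3.02 in Tomato-. At *Eya2*, a region in intron 2 (chr2:165675566-165675977) had 4.22 and 5.004 in GFP+, but also 3.02 and 5.97 in GFP- and 4.10 in Tomato-, and its sequence was wholly repeat-masked, with a median of 1159 genomic copies of its 31-base words. At *Eya3*, a region in intron 7 (chr4:132676373-132676681) had 3.61 and 3.96 in Tomato+, no peak in GFP+ or GFP- replicate 1, 2.99 in GFP- replicate 2 and 2.59 in Tomato-, and was repeat-masked over 78.0% of its length with a median copy number of 1. All 3 regions thus had a peak in at least 1 sort-negative library.

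Each sorted population was also compared with the negative cells of its own line. Between GFP+ and GFP-, 1 of 14 promoter regions ranked higher in GFP+ (background 20.4%) and 3 ranked lower (10.5%), the latter being *Eya2*, *Eya3* and the promoter of *Rpa2* in the *Eya3* window. Of the distal regions 19 (11.6%) ranked higher and 13 (7.93%) lower, against 7.75% and 7.83%. Between Tomato+ and the single Tomato- library, 2 promoter regions ranked higher (18.6%) and 4 lower (36.1%), and 19 distal regions (11.6%) ranked higher and 44 (26.8%) lower, against 9.28% and 24.9%. With 1 Tomato- library, which was also the deepest with 93074895 tags, depth and population cannot be told apart, and a surplus of lower calls was also seen over all regions. Without Tomato+ replicate 6, 41 of the same regions ranked higher and 60 lower, in place of 21 and 48. These comparisons share the GFP+ and Tomato+ libraries with the comparison above.

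**Figure D3:**
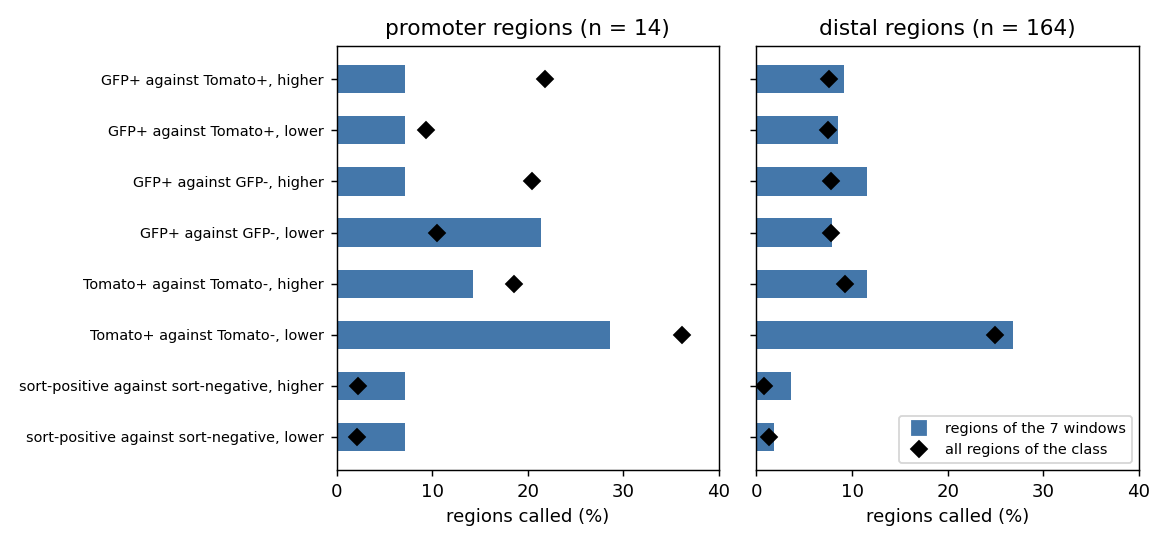
Percentage of regions called in each comparison (x axis), for the 14 promoter regions on the left and the 164 distal regions on the right of the 7 windows (bars), with the percentage of all regions of the class called by the same rule (diamonds). Distal bars lie close to their diamonds for GFP+ against Tomato+ and for Tomato+ against Tomato-, and the longest bars, 28.6% and 26.8%, are for regions lower in Tomato+ than in Tomato-.

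After these values were seen, the 4 sort-positive libraries were set against the 3 sort-negative ones. At 7 regions all 4 sort-positive libraries ranked above all 3 others: 6 of 164 distal regions (3.66%, against 0.796% of all distal regions) and 1 of 14 promoter regions (against 2.25%). At 4 regions they ranked below: 3 distal (1.83%, against 1.36%) and 1 promoter region, that of *Eya2* (against 2.15%). The comparison was chosen with results in view, and the counts are a description of these libraries. GFP- cells can include the Mef2c-Cre lineage and Tomato- cells the posterior field, so the comparison does not set heart field against other cells. Without Tomato+ replicate 6 all 11 calls remained. All 7 higher calls remained when ranks were taken from q-values or as a percentage of the list, whereas of the 4 lower calls 3 remained by q-value and 1 as a percentage of the list.

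The intron 6 region of *Eya1* (chr1:14265844-14266365, 44.1 kb into the gene) had fold enrichments of 4.82 and 3.75 in GFP+, 3.61 and 3.68 in Tomato+, 2.27 and no peak in GFP-, and 2.81 in Tomato-. It passed the q limit in the 4 sort-positive libraries and in none of the others. Its sequence is a tandem repeat: 89.7% of its bases equal the base 29 bp further on, none of it is repeat-masked, and its 31-base words occur a median of 6 times in the genome and also 6 times within 1 kb, so the copies belong to the array itself. The array carries the MEIS string on the minus strand in most units, 8 times within 200 bp of the summit, and 0.0773% of all distal regions held as many. Where the aligner placed reads from identical units was not tested.

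The upstream region of *Eya1* (chr1:14354319-14354409, at -44.2 kb from the TSS) had fold enrichments of 3.61 and 3.25 in GFP+, 4.93 and 3.11 in Tomato+, and no peak in any sort-negative library. It passed the q limit in 3 libraries, with Tomato+ replicate 8 the exception. The region was repeat-masked over 100% of its length, but its 31-base words had a median copy number of 1, and it held a HOX-PBX string. Further upstream, a repeat-masked region of median copy number 264 (chr1:14354561-14354736) ranked the other way, with a peak in all 3 sort-negative libraries at ranks 44719, 26355 and 44658, at 51115 in GFP+ replicate 3 and 90644 in Tomato+ replicate 8, and no peak in the other 2.

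At *Eya2*, the region in intron 1 (chr2:165653411-165654060), at -1.56 kb from the third annotated TSS, was open in all 7 libraries. Its fold enrichment was 4.64 and 3.86 in GFP+, 4.07 and 5.61 in Tomato+, 3.18 and 3.38 in GFP-, and 3.11 in Tomato-. The lowest sort-positive value was above the highest sort-negative one, the reverse of the *Eya2* promoter. It was single-copy and held 1 MEIS string. The other higher regions of *Eya2* were a repeat-masked one in intron 1 (chr2:165614929-165615260, median 20 copies), at 4.16 and 2.63 in GFP+, 3.61 and 4.84 in Tomato+, and at most 2.41 in the others, and one in intron 9 (chr2:165751054-165751394) at 2.58 and 2.91 in GFP+, 4.30 and 2.98 in Tomato+, with no peak in the others.

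At *Dach1*, the region in intron 1 at 2.39 kb from the TSS (chr14:98167253-98167506) had fold enrichments of 2.94 and 2.73 in GFP+, 3.02 and 3.13 in Tomato+, and no peak in GFP- or Tomato-. Its -log10 q-values were 2.42, 2.21, 2.56 and 2.84, all just past the limit of 2. Only 30 of 191511 distal regions, 0.0157%, passed the q limit in all 4 sort-positive libraries with no peak in the 3 others. The region was single-copy, and none of the 9 strings but NKX, which 57.6% of all distal regions held, was found within 200 bp of its best summit. It lay 180 bp from a region of 1819 bp over exon 1 (chr14:98167687-98169505) that was open in all 7 libraries, so a wider peak in one library would have joined the pair.

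The remaining higher region, in the *Six2* window, was the promoter of the long non-coding RNA gene *Six3os1*, 70.1 kb downstream of the *Six2* TSS. It had fold enrichments of 3.33 and 3.90 in GFP+, 4.01 and 3.05 in Tomato+, 2.297 and no peak in GFP-, and 2.13 in Tomato-. It neighbours *Six3*, a homeodomain gene of forebrain and eye. Of the lower regions not yet named, 1 upstream of *Six4* (chr12:73145616-73145818) had a peak in the 3 sort-negative libraries alone, at 3.27, 2.99 and 3.67, and 1 in intron 5 of *Eya2* (chr2:165701346-165702046) had ranks of 71317 and 37215 in GFP+, 185590 and 41273 in Tomato+, 29923 and 34481 in GFP-, and 36579 in Tomato-. At the *Six4* region, the peak of GFP- replicate 2 did not pass the q limit (-log10 q-value 1.57).

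**Figure D4:**
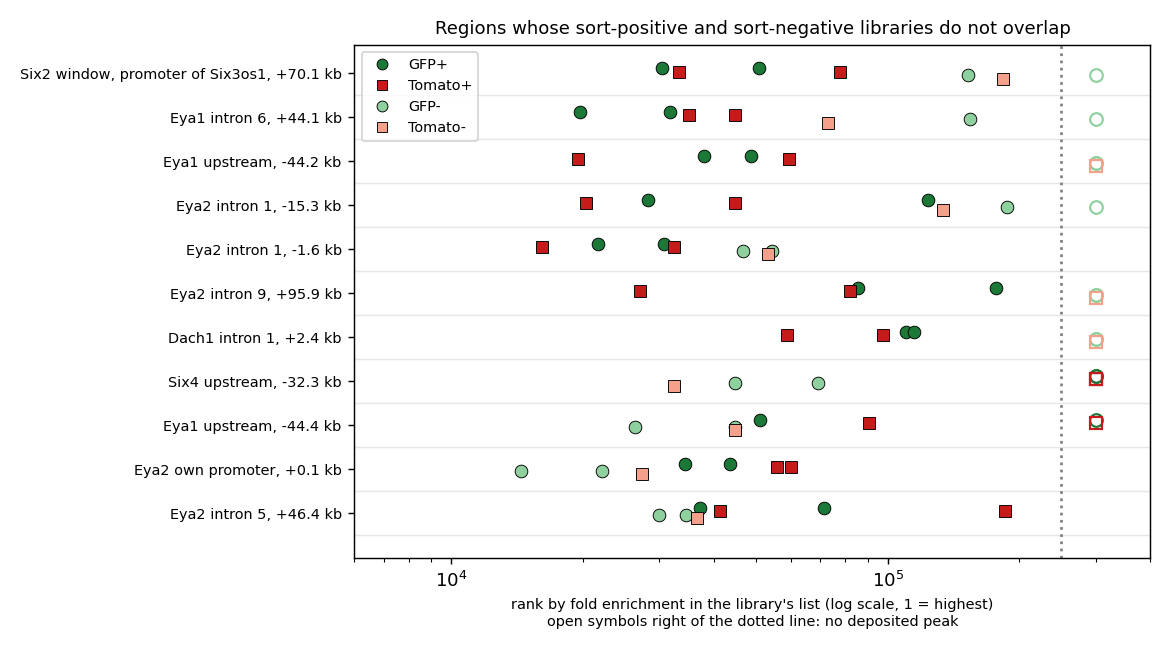
Rank by fold enrichment (x axis, log scale, 1 is highest) of the 11 regions whose sort-positive (dark symbols) and sort-negative (pale symbols) libraries do not overlap, each row labelled with its place and its distance from the nearest annotated TSS of the gene. Open symbols stand for libraries without a peak. The upper 7 rows have the sort-positive libraries to the left, and in the row for the *Eya2* promoter the sort-negative libraries lead from 14483 to 27374.

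The strongest distal regions of each gene were taken by their median rank. At *Dach1* the first was in intron 1 (chr14:98154840-98155387), 14.7 kb into the gene, with ranks of 8986 and 27303 in GFP+, 22902 and 14149 in Tomato+, 5208 and 8496 in GFP-, and 55735 in Tomato-. Both GFP- libraries were above both GFP+ libraries, and Tomato- was the lowest. It was single-copy, and its printed window held a MEIS and a HOX-PBX string.

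At *Six2* the leading distal regions flanked the gene, at -49.2 kb (chr17:85737251-85737725), 42.4 kb (chr17:85645691-85646076) and -9.83 kb (chr17:85697891-85698286) from its TSS. They passed the q limit in 6, 6 and 5 libraries, with median ranks of 23132, 27374 and 44015. All 3 were single-copy. At *Six4*, the region in intron 1 (chr12:73110396-73111074) passed it in 4 libraries with a median rank of 90927. The remaining leading regions of *Six4* were a repeat-masked one at -22.1 kb, with a median rank of 72844 and 3 libraries, and one 43.9 kb downstream that passed in 1 library.

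At the EYA genes most leading distal regions lay in repeats. The best-ranked region of all 7 windows was downstream of *Eya1* (chr1:14119535-14119956), with ranks of 245 and 316 in GFP+, 364 and 1027 in Tomato+, 357 and 334 in GFP-, and 563 in Tomato-. It was repeat-masked over 100% of its length, with a median of 11649 copies of its 31-base words, and its neighbour (chr1:14119351-14119488), also open in all 7 libraries, had 3287.5. The third of *Eya1*, in intron 15 (chr1:14181443-14182048), was single-copy and passed the limit in 5 libraries. At *Eya2* the 3 leading regions had median copy numbers of 1159, 518 and 29, and at *Eya3* the first and second had 6 and 9. Of the 164 distal regions 23 had a median copy number above 1.

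The consensus strings were counted within 200 bp of the best summit. The HOX-PBX string was found in 36 of 164 distal regions, 22.0% against 13.7% of all distal regions, and in 31 of 141 single-copy ones, also 22.0%. *Eya1* had it in 9 of 23 distal regions, *Dach1* in 7 of 25, *Eya3* in 6 of 20, *Eya2* in 6 of 56, *Six2* in 3 of 20, *Eya4* in 3 of 11 and *Six4* in 2 of 9. The MEIS string was in 34.8% against 28.1%, and the MEF3 string in 5 regions, 3.05% against 6.36%. TEAD (21.3% against 21.5%), GATA (16.5% against 15.1%), NKX (59.8% against 57.6%), TBX (10.4% against 10.2%), LHX/ISL (5.49% against 6.02%) and RUNX (26.8% against 27.4%) were near the share of all distal regions. Median GC content was 51.1% in the windows and 51.9% over all distal regions. Regions of 1 window share its base composition, and no test was made of these shares.

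**Figure D5:**
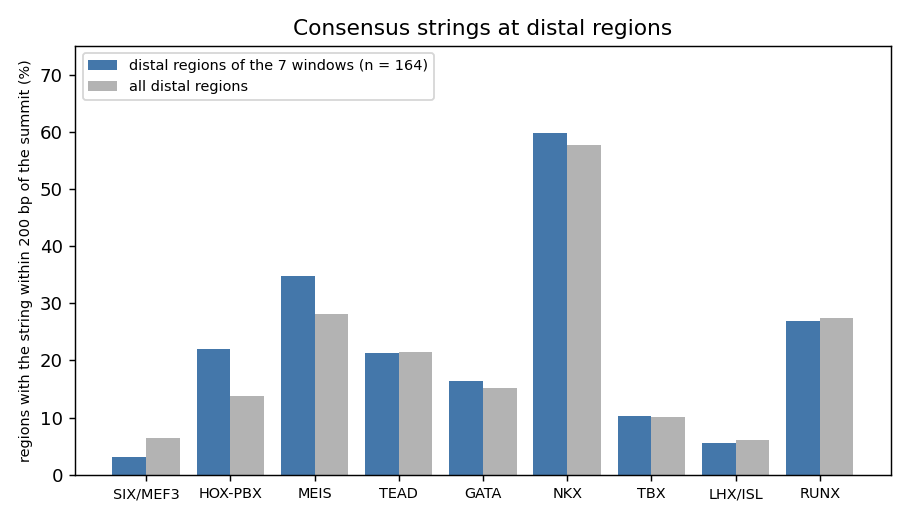
Percentage of distal regions with each consensus string within 200 bp of the best summit (y axis), for the 164 distal regions of the 7 windows (blue) and all 191511 distal regions (grey). The widest gap is at HOX-PBX, 22.0% against 13.7%, and the MEF3 string (labelled with SIX-family factors) has the lowest share in the windows, 3.05%.

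The wider network was taken as 14 further genes: the upstream factors *Pax2*, *Pax3*, *Pax7*, *Pax8* and *Tbx1*, the DACH relatives *Ski* and *Skil*, and the targets *Fgf8*, *Fgf10*, *Gdnf*, *Sall1*, *Myog*, *Ccnd1* and *Ezr*. A promoter peak past the q limit was found in all 7 libraries at *Ski*, *Skil*, *Fgf10*, *Sall1* and *Ezr*, in 1 library at *Tbx1* and *Pax8*, and in none at *Myog*, the myogenic differentiation factor. Of all 26180 genes with a curated TSS, 46.2% had one in all 7 libraries, so the network count is no result about these genes. Weaker deposited peaks stood at *Tbx1* in 6 libraries, at *Myog* in 4 and at *Pax8* in 3, those past the limit included. Between GFP+ and Tomato+, 4 of the 14 ranked higher in GFP+ (against 24.7% of 17148 gene promoters) and 2 lower (against 10%). *Fgf10*, a ligand made by second heart field progenitors, had fold enrichments of 7.86 and 5.53 in GFP+, 4.66 and 5.30 in Tomato+, 5.26 and 5.58 in GFP-, and 4.76 in Tomato-. *Fgf8*, which is required for outflow tract growth, had 2.90 and 2.29 in GFP+, no promoter peak in Tomato+, 2.17 and 2.64 in GFP-, and 2.51 in Tomato-, of which GFP+ replicate 3 and Tomato- passed the q limit. *Pax3*, a factor of somites and neural crest, had 2.52 and 2.87 in GFP+, 3.61 and 4.38 in Tomato+, 3.57 and 2.39 in GFP-, and 2.89 in Tomato-. *Tbx1* passed the q limit in GFP- replicate 1 alone, at 2.63.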

How the data were processed

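Chromatin accessibility was measured by ATAC-seq in 7 libraries of sorted E9.5 cells. Reads had been mapped to GRCm38 by the authors, who used SNAP, and peaks were called per library with MACS; the submitters' processing notes name MACS2 2.1.1, whereas the header of the one list that has it gives an earlier release, no control, a p-value limit of 0.01, a shift of 37 bp, an extension to 73 bp and duplicates kept. A shift in that direction moves intervals off the cut site and can displace summits. How reads of repeated sequence were placed is not given in the sources used here. The authors deposited for each summit a pileup (coverage signal, not scaled to depth), a fold enrichment (ratio of pileup to local background) and a -log10 p-value and -log10 q-value, which grow with depth.

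Summits of 1 interval were collapsed to that with the smallest p. Regions were annotated with RefSeq GRCm38.p6, and promoters are those of 26180 genes with curated transcripts. Soft-masking and copies of 31-base words, sampled every 5 bp, were read from the same assembly. Populations were compared by non-overlapping ranks and, at promoters, by two-sided exact permutation of log2 fold enrichment. Populations come from the sample titles; where the labels do not tell pools apart, p-values measure only the spread between these samples. Named regions were the promoter of each gene, its 3 distal regions of best median rank, and distal regions with peaks in both libraries of GFP+ or Tomato+ and none in the other; 14 network genes were fixed as a list. The 7 genes, the lists and the rules were chosen with earlier results of these data known. One locus in the *Six4* window, with 2 regions, is not reported here. Steps were tested on simulated data. Python 3.11.15, numpy 2.4.6, pandas 2.3.3 and numba 0.67.0 were used. Peaks carry no count of reads per region, so no count model was fitted.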

Additional observations from a re-analysis of the deposited data

How the results depend on the processing

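No called region turned to the opposite call under the other rankings or without a library; turned calls were not counted for the stricter q-value limit, the 10 kb flanks or the 50% overlap. The balance of higher and lower counts did turn in places. With a q-value limit of 0.0001 the windows held 56 regions in place of 178, 10 in place of 16 were open in all libraries, 6 in place of 16 ranked higher in GFP+ than in Tomato+ and 5 in place of 15 lower, and 9 in place of 20 ranked higher in GFP+ than in GFP- with 13 in place of 16 lower. At that limit 4 genes in place of 6 had a peak inside the promoter window in all libraries. Where sharing needed an overlap of 50%, 11 ranked higher in GFP+ than in Tomato+ and 15 lower. With flanks of 10 kb there were 106 regions, 10 ranked higher in GFP+ than in Tomato+, and 8 in place of 16 ranked lower in GFP+ than in GFP-. As a percentage of the list, 10 ranked lower in GFP+ than in GFP- and 1 in place of 4 lower in the sort-positive than in the sort-negative libraries.

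Leaving out each library in turn gave 6 genes with a peak inside the promoter window in all libraries (6 as reported, and 7 with a window of 500 bp on either side), 154 to 171 regions and 16 to 18 open in all. Ranked higher in GFP+ than in Tomato+ were then 28 to 42 regions, lower 21 to 51, higher in GFP+ than in GFP- 26 to 48, lower 22 to 52, higher in all sort-positive libraries 7 to 10 and lower 5 to 8. Without GFP- replicate 1, 26 ranked higher in GFP+ than in GFP- and 52 lower, and without GFP- replicate 2, 30 and 38. Without Tomato+ replicate 8, 28 ranked higher in GFP+ than in Tomato+ and 51 lower. Higher counts follow from the construction, since fewer libraries have to separate: each GFP+ and each Tomato+ library alone moved the first count over 1.5 times, each Tomato+ library the second, each GFP+ library the third, each GFP- library the fourth, and each sort-negative library the last. All calls as reported remained among them where the same regions were ranked. Restricted to single-copy regions, an alternative added after the data were seen, 11 ranked higher in GFP+ than in Tomato+ and 13 lower. No paired analysis was made, because the labels do not say which libraries came from the same pool of embryos. The replicate numbers come from the sample titles and do not tell this. With pileups of 10 to 47 at the 7 promoters, differences of a few reads were not detectable at this depth.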

Other observations

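For *Six4*, *Eya2*, *Eya3*, *Eya4* and *Dach1*, which had a peak inside the promoter window in all 7 libraries, the genes with the most similar promoter profile were found by Pearson's r of log2 fold enrichment over the 7 libraries, among 12084 genes. The leading genes were *Ccdc97* for *Six4* (r = 0.980), *Zfp809* for *Eya2* (0.958), *Cnep1r1* for *Eya3* (0.986), *Secisbp2* for *Eya4* (0.962) and *Creb3* for *Dach1* (0.969). With 7 points that share libraries and depth, and so many genes compared, values of this size are a description only. *Eya1* was not compared, as its peak left the window in 2 libraries.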
